A study of Mus musculus with 16 samples.

Results

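The genes described here encode the enzymes of cholesterol synthesis, the machinery of the transcription factor SREBP2 and proteins that move or store sterols. They were named as 26 gene symbols. Of these, 25 had a row in the count table of 20295 genes, and Hmgcs1, the synthase that makes HMG-CoA, was not analysed here. All 25 genes with a row were among the 12786 tested, which had enough counts for edgeR's filter. By role, 4 belong to the SREBP2 machinery, 7 to the mevalonate and isoprenoid steps, 10 to the steps from squalene to cholesterol, and 4 to sterol traffic and storage.

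Cells make cholesterol from acetyl-CoA by way of mevalonate, isoprenoid diphosphates, squalene and lanosterol. SREBP2 waits in the membrane of the endoplasmic reticulum, from which the escort protein Scap carries it to the Golgi for cleavage when sterols are scarce, while Insig proteins hold the pair back when sterols are plentiful. The released factor enters the nucleus and raises the genes of most of these enzymes, usually together with the CCAAT-binding factor NF-Y and with Sp1, which binds GC boxes. In adipocytes the same acetyl-CoA also feeds fatty acid synthesis, and much of the cell's free cholesterol lies at the surface of lipid droplets.

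In the study, inhibitors were used to learn if freed fatty acids must first be activated or oxidized before lipolysis can change gene expression. RNA-seq was done on BAT-LgT cells, a wild-type (WT) mouse brown preadipocyte line immortalized with SV40 large T antigen and differentiated in culture to day 7, so that all groups carry the large T antigen and come from a single line. Lipolysis was stimulated for 3 h with 10 µM SR-3420, a synthetic ligand that frees ABHD5 to switch on the lipase ATGL. Cells were pretreated for 1 h with 5 µM triacsin C (TC), which inhibits the long-chain acyl-CoA synthetases, with 50 µM etomoxir (ETO), which inhibits carnitine palmitoyltransferase, or with neither. The dose of SR-3420 is that of the sample labels, and the study's text gives a higher one. The 6 groups were vehicle and SR-3420 (n = 2 each) and TC, TC+SR-3420, ETO and ETO+SR-3420 (n = 3 each), named by replicate numbers 2 and 3 for vehicle, 1 and 3 for SR-3420 and 1, 2 and 3 for the others. The study describes its replicates as independent experiments. Total counts were 14032494 and 10097582 for vehicle and 19156037 and 15667121 for SR-3420. The other totals were between 9452861 and 15818919 for TC, between 10659704 and 16265789 for TC+SR-3420, between 10993504 and 14993463 for ETO, and between 13173278 and 25670624 for ETO+SR-3420. No replicates held identical values, and over the 14 pairs of replicates the chi-square statistic per degree of freedom was 4.37 to 156.

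The label brown adipocyte was checked against 13 marker genes. General adipocyte genes were abundant, with Fabp4, the most abundant of them, at a mean of 6872 CPM (counts scaled by library size with the TMM method) and Adipoq at 2949 CPM in vehicle. Of the markers that set brown adipocytes apart, Cox8b was at a vehicle mean of 118 CPM, Ppargc1a at 51.6, Prdm16 at 34.8, Cidea at 17.4, Elovl3 at 9.22 and Cox7a1 at 6.07. Ucp1 was low, between 0.461 and 3.66 CPM over the 16 samples, and Dio2 was at 0 in 12 of them. Summed markers of macrophages or leukocytes stayed at or under 18.4 CPM, of endothelium at or under 3.58, of skeletal muscle at or under 12.4 and of hepatocytes at or under 5.01, with Ttr at 0 in all 16 samples. The macrophage or leukocyte sum was 6.51 and 4.33 CPM with vehicle and 16.6, 18.4 and 17.2 with TC, above every other group, and in it Cd68 had means of 4.06 and 15.5. With TC alone the brown adipocyte markers did not all go the same way. The means of Prdm16, Ppargc1a and Pparg were 7.90, 25.1 and 118 CPM, below those with vehicle. Those of Cox8b, Cidea, Elovl3, Cox7a1 and Ucp1 were 157, 21.7, 15.4, 9.67 and 1.85 CPM, above those with vehicle.

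Adipocyte and fibroblast markers moved with SR-3420. The 13 brown adipocyte markers had sums of 12253 and 11558 with vehicle and 8724 and 8519.9 with SR-3420, of 13095, 13761 and 13811 with TC and 4913, 5082 and 5512 with TC+SR-3420, and of 11875, 11105 and 12675 with ETO and 6001, 4748 and 8026 with ETO+SR-3420, all in CPM. The 7 preadipocyte or fibroblast markers, of which Col1a1 was the most abundant and none was at 0 in all samples, had sums of 1616 and 1333 with vehicle and 3732 and 2578 with SR-3420, of 2266, 2047 and 1687 with TC and 4202, 3476 and 2679 with TC+SR-3420, and of 1999, 1408 and 880.5 with ETO and 4378, 3098 and 2019 with ETO+SR-3420 on the same scale. The adipocyte sum was lower in every sample with SR-3420 than in every sample of its control group, and the fibroblast sum was higher, although the highest ETO sample and the lowest ETO+SR-3420 sample nearly met. The adipocyte sum is made up mostly of Fabp4, Adipoq and Plin1, and the less abundant markers of that list did not all go the same way. In mean CPM, in the order without inhibitor, with TC and with ETO, Cox8b went from 118 to 60.2, 157 to 39.6 and 97.5 to 40.9, and Ucp1 from 1.22 to 2.26, 1.85 to 3.205 and 1.29 to 2.87. Cidea went from 17.4 to 29.4, 21.7 to 16.1 and 13.3 to 17.2, and Elovl3 from 9.22 to 15.3, 15.4 to 9.02 and 11.4 to 12.4. Cox7a1 went from 6.07 to 8.44, 9.67 to 5.84 and 4.52 to 5.15, and Pparg from 329 to 187, 118 to 119 and 264 to 152. In RNA from whole cultures, fewer cells of a type and less RNA per cell cannot be told apart, and the part of these shifts in the results for the cholesterol genes was not tested.

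The libraries also differed in a way that the groups do not explain. Across genes, each library's deviation from its group mean correlated with GC content, with r from -0.78 in ETO replicate 3 to 0.77 in ETO+SR-3420 replicate 1, and all 6 libraries numbered 3 had a negative r. The log2 fold changes (log2FC) of the comparisons carried part of it, with r against GC content between -0.59 for ETO+SR-3420 against SR-3420 and 0.25 for SR-3420 against vehicle. Genes are not independent replicates in these correlations. The counts of genes past the test are therefore also given, where they moved by more than 1.5 times, after trends over GC content and counted length had been removed, an alternative chosen after seeing the data.

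Most of the genes were expressed well above the typical gene. Per kilobase of counted length, in RPKM, 22 of the 25 lay above the vehicle median of all genes tested (11.1 RPKM), and their own median was 46.4 RPKM. Insig1 had the highest level, 467 ± 120.0 RPKM (SD, n = 2), followed by Npc2 at 148 ± 4.85 and Pmvk at 119 ± 16.9. Lss, Mvd, Sqle and Srebf2 followed within 96.1 to 104 RPKM, and these neighbours did not differ beyond their spread between the vehicle samples. The lowest levels were those of Soat1 at 8.92 ± 3.13, Idi1 at 4.13 ± 0.352 and Ggps1 at 3.35 ± 1.86 RPKM (SD, n = 2 each).

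Because SREBP2 acts together with factors that bind CCAAT and GC boxes, the 150 bases before the transcription start were searched in RefSeq promoters (build GRCm38.p6). The table of promoters held 21 of the 26 genes, 20 of them measured here, and had no entry for Fdps, Fdft1, Sqle, Stard4 and Npc1. The letters CCAAT, on either strand, were present before at least 1 start of 17 of the 20 measured genes (85%), against 32.1% of the 9649 tested genes with a promoter and 24.5% of all 32851 promoters. GGGCGG was present in 17 of 20, against 58.6% of tested genes and 28.6% of all promoters, and CACGTG in 3 of 20, against 7.36% and 4.30%. The sterol-element letters CACCCCAC and TCACNCCAC, which overlap each other, were found in 0 of the 20, against 2.30% and 0.788% of tested genes and 1.67% and 0.639% of all promoters. The promoter of Hmgcs1, whose counts were not analysed here, held both of these. A match describes the letters only, and no match says only that they are not in this window.

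The sequences below are the 150 bases before the start, 5′ to 3′ on the gene's strand, of 5 enzymes with a single listed start and the largest falls with SR-3420 under TC, and of Soat1, the gene with the largest rise. They were chosen after the values were seen. Capitals mark CCAAT and GGGCGG on either strand (ATTGG and CCGCCC when read on the gene's own strand), and coordinates are of GRCm38.p6.
Tm7sf2 (chr19:6067851-6068000, minus strand): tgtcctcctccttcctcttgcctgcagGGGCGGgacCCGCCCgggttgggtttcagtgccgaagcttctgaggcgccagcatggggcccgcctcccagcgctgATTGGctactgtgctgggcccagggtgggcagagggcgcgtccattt
Mvd (chr8:122443423-122443572, minus strand): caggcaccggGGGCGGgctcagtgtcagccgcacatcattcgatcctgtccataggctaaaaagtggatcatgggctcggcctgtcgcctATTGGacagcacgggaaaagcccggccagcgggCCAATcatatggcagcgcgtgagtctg
Mvk (chr5:114444119-114444268, plus strand): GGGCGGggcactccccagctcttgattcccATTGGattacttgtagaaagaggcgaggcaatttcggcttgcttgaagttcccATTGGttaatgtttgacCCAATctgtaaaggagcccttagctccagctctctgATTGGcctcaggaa
Acat2 (chr17:12960726-12960875, minus strand): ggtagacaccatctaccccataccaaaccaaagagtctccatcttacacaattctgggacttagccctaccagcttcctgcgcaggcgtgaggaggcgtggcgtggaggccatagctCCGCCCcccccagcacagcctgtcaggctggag
Lss (chr10:76531455-76531604, plus strand): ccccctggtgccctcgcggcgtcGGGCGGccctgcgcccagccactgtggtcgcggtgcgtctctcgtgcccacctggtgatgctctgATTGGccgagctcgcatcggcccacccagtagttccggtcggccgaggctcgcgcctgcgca
Soat1 (chr1:156474329-156474478, minus strand): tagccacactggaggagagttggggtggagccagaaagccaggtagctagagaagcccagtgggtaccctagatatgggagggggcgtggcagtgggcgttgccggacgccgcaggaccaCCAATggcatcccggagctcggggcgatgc
CCAAT was present before 4 of the 5 falling enzymes and before Soat1, while the window of Acat2 held GGGCGG and no CCAAT. Counting to the first letter on the strand shown, the CCAAT matches lay 47 bases before the start in Tm7sf2, 60 and 27 in Mvd, 120, 67, 50 and 14 in Mvk, 62 in Lss and 30 in Soat1.

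With SR-3420, 7 of the 17 measured enzymes of cholesterol synthesis were called lower without inhibitor, 12 with TC and 11 with ETO, while Cyp51, Nsdhl, Lbr and Ggps1 were not called in any of these comparisons. Without the GC and length trends, Cyp51 and Nsdhl were called lower in all 3, and Lbr higher with TC and with ETO, in fits that called 24.3%, 53.04% and 46.5% of all genes (from 7.54%, 36.9% and 25.3%). A gene was called when its Benjamini-Hochberg adjusted p over all genes tested, from edgeR's quasi-likelihood test, was under 0.05. With SR-3420 against vehicle, 7 of the 25 genes were lower, against 2.79% of all genes tested, and 0 were higher, against 4.75%. In this comparison 11 of the 25 genes had an unadjusted p under 0.05, beside 2788 of all 12786 tested. DESeq2's Wald test called 9, 9 lower and 0 higher, against 12.9% of all genes it tested. With TC+SR-3420 against TC, 14 were lower and 2 higher, against 19.7% and 17.3% of all genes. With ETO+SR-3420 against ETO, 11 were lower and 1 higher, against 12.8% and 12.5%. The median log2FC of the 25 genes was -0.49, -0.66 and -0.50 in these comparisons, beside -0.004, 0.02 and 0.01 over all genes tested. All 15 genes called lower in any of the 3 comparisons were synthesis enzymes except Insig1 and Npc2, and the genes called higher were Soat1 and Npc1.

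The 3 comparisons share no samples. Of the 17 synthesis enzymes, 16 had a log2FC below 0 in all 3 (94.1%, beside 30.7% of all genes tested), and Lbr was the exception. This held in each of the 9 other fits that kept all replicates, with other scalings, tests or filters or with the GC and length trends removed. The enzymes called lower in all 3 were Acat2, Pmvk, Fdps, Sqle, Tm7sf2 and Dhcr7, which is 6 of the 25 genes (24%), beside 2.10% of all genes tested.

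**Figure D1:**
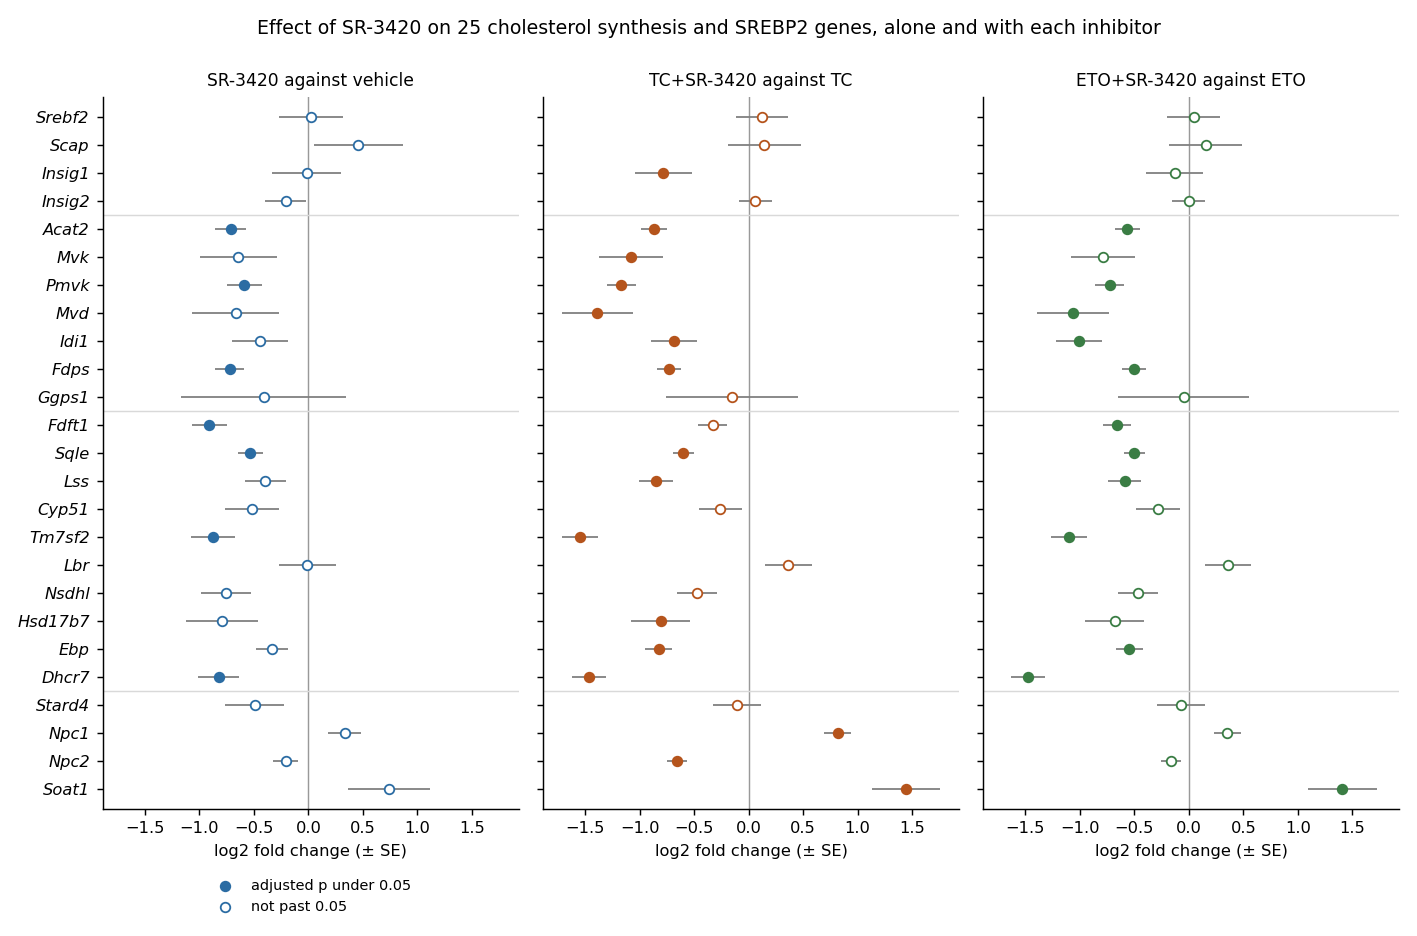
Log2 fold change (± SE) of the 25 genes for SR-3420 against vehicle (n = 2 each), TC+SR-3420 against TC and ETO+SR-3420 against ETO (n = 3 each), with genes ordered by role and filled points past an adjusted p of 0.05 in edgeR's quasi-likelihood test. The enzymes between Acat2 and Dhcr7 lie to the left of 0 except Lbr, and Soat1 lies furthest to the right, at 0.74, 1.44 and 1.41.

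The comparison without inhibitor rests on 2 samples a group and was the most sensitive. Of its 7 genes, 1 passed without vehicle replicate 2, 2 without vehicle replicate 3, 2 without SR-3420 replicate 1 and 4 without SR-3420 replicate 3, and 0 passed when only these groups were fitted in edgeR, with 9 at an unadjusted p under 0.05. The share of all genes called also dropped, from 7.54% to 2.62%, 2.33%, 2.61%, 3.86% and 0.378% in the same order. After removal of the GC and length trends 16 passed, 15 lower and 1 higher, against 24.3% of all genes called. The genes added were Mvk, Mvd, Lss, Cyp51, Nsdhl, Hsd17b7, Ebp, Stard4 and Soat1, and with the trends removed Cyp51, Nsdhl, Stard4 and Lbr were added with TC, against 53.04% of all genes, and Mvk, Cyp51, Nsdhl, Hsd17b7, Npc1 and Lbr with ETO, against 46.5%. DESeq2's Wald test added Nsdhl and Npc2 without inhibitor and Mvk, Npc1 and Npc2 with ETO, where it called 12.9% and 28.6% of all genes. With TC, 12 of the 16 calls were kept whichever single sample was left out, and with ETO 10 of the 12, in fits that called 27.7% to 31.9% and 15.5% to 25.01% of all genes. When only the ETO and ETO+SR-3420 samples were fitted, 6 of those 12 passed, and Mvd, Fdps, Sqle, Lss, Ebp and Acat2 did not, while the share of all genes called went from 25.3% to 9.90%.

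The mevalonate steps begin with Acat2, the thiolase that joins acetyl-CoA units (NM_009338; mm9 chromosome 17, 13135908 to 13153591, minus strand). In CPM, Acat2 was at 118 and 115 with vehicle against 68.6 and 73.6 with SR-3420. It was at 135, 154 and 139.7 with TC against 71.6, 80.03 and 82.4 with TC+SR-3420, and at 87.3, 96.6 and 101 with ETO against 59.3, 59.2 and 74.4 with ETO+SR-3420. Each SR-3420 sample lay below each sample of its control group. Its log2FC was -0.71 (SE 0.15) for SR-3420 alone, -0.87 (SE 0.12) with TC and -0.56 (SE 0.12) with ETO, with adjusted p of 0.00960, 0.000107 and 0.00380 (edgeR's quasi-likelihood test, Benjamini-Hochberg adjustment). Its call for SR-3420 alone was lost without vehicle replicate 2, vehicle replicate 3 or SR-3420 replicate 1 (adjusted p 0.0661, 0.0621 and 0.0923; 2.14e-05 to 0.204 over all alternatives). Whether reads of the related gene Acat3 were counted for it was not tested.

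Mevalonate is phosphorylated by Mvk and then by Pmvk, and Mvd removes a carboxyl group to give the isoprenoid unit. In CPM, Pmvk was at 156 and 127 with vehicle against 89.96 and 98.1 with SR-3420. It was at 172, 209 and 179 with TC against 81.6, 86.1 and 81.1 with TC+SR-3420, and at 115, 117 and 90.9 with ETO against 69.1, 59.01 and 67.5 with ETO+SR-3420. Pmvk (NM_026784; mm9 chromosome 3, 89263040 to 89272931, plus strand) had lower values with SR-3420 in all 3 settings, without overlap between the groups. Its log2FC was -0.59 (SE 0.16) for SR-3420 alone, -1.17 (SE 0.13) with TC and -0.73 (SE 0.13) with ETO, with adjusted p of 0.0427, 2.99e-05 and 0.00155 (edgeR's quasi-likelihood test, Benjamini-Hochberg adjustment). The call of Pmvk for SR-3420 alone was lost without vehicle replicate 2, vehicle replicate 3, SR-3420 replicate 1 or SR-3420 replicate 3 (adjusted p 0.238, 0.0701, 0.240 and 0.1004; 0.000225 to 0.283 over all alternatives). It was also lost without a filter on low counts. Mvk and Mvd were called with TC, at -1.08 (SE 0.29) and -1.39 (SE 0.33) on the log2 scale, and Mvd also with ETO, at -1.06 (SE 0.33), although its ETO and ETO+SR-3420 samples overlapped. Mvk was not called with ETO, at -0.79 (SE 0.29), and neither was called without inhibitor, at -0.64 (SE 0.36) and -0.67 (SE 0.40). The call of Mvk with TC was lost without TC+SR-3420 replicate 3 (adjusted p 0.0502; 3.89e-07 to 0.0502 over all alternatives). With ETO, Mvk passed without ETO replicate 3 and without ETO+SR-3420 replicate 1 (adjusted p 0.0178 and 0.0263; 2.71e-07 to 0.243 over all alternatives). The call of Mvd with ETO was lost without ETO replicate 1, ETO replicate 2, ETO+SR-3420 replicate 2 or ETO+SR-3420 replicate 3 (adjusted p 0.117, 0.0852, 0.119 and 0.0885; 5.72e-08 to 0.119 over all alternatives).

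Idi1 isomerizes the isoprenoid unit, Fdps joins units into farnesyl diphosphate, and Ggps1 extends this to a longer unit that is attached to proteins. In CPM, Fdps was at 101 and 91.6 with vehicle against 54.4 and 62.3 with SR-3420. It was at 105, 114 and 110.1 with TC against 65.9, 71.4 and 60.4 with TC+SR-3420, and at 71.4, 67.5 and 59.2 with ETO against 48.4, 45.6 and 45.98 with ETO+SR-3420. The control samples of Fdps (NM_001253751; mm9 chromosome 3, 88897510 to 88905889, minus strand) lay above the SR-3420 samples in all 3 comparisons. Its log2FC was -0.72 (SE 0.14) for SR-3420 alone, -0.73 (SE 0.11) with TC and -0.50 (SE 0.11) with ETO, with adjusted p of 0.00601, 0.000231 and 0.00523 (edgeR's quasi-likelihood test, Benjamini-Hochberg adjustment). Its call for SR-3420 alone was lost without vehicle replicate 2 or SR-3420 replicate 1 (adjusted p 0.0631 and 0.0777; 4.36e-07 to 0.212 over all alternatives). Idi1 was a gene of few counts, between 57 and 269 a sample, and was lower with TC (-0.68, SE 0.21) and with ETO (-1.01, SE 0.21), while its log2FC without inhibitor was -0.44 (SE 0.26) and not called. The call of Idi1 with TC was lost without TC replicate 2, TC+SR-3420 replicate 1 or TC+SR-3420 replicate 2 (adjusted p 0.112, 0.0583 and 0.0792; 0.00461 to 0.112 over all alternatives). It was also lost without a filter on low counts and without the GC and length trends. Whether reads of the related gene Idi2 were counted for it was not tested. Ggps1, on a branch that leaves the sterol pathway, had 59 to 311 counts and was not called in any comparison, with log2FC of -0.41 (SE 0.76), -0.16 (SE 0.61) and -0.050 (SE 0.60).

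**Figure D2:**
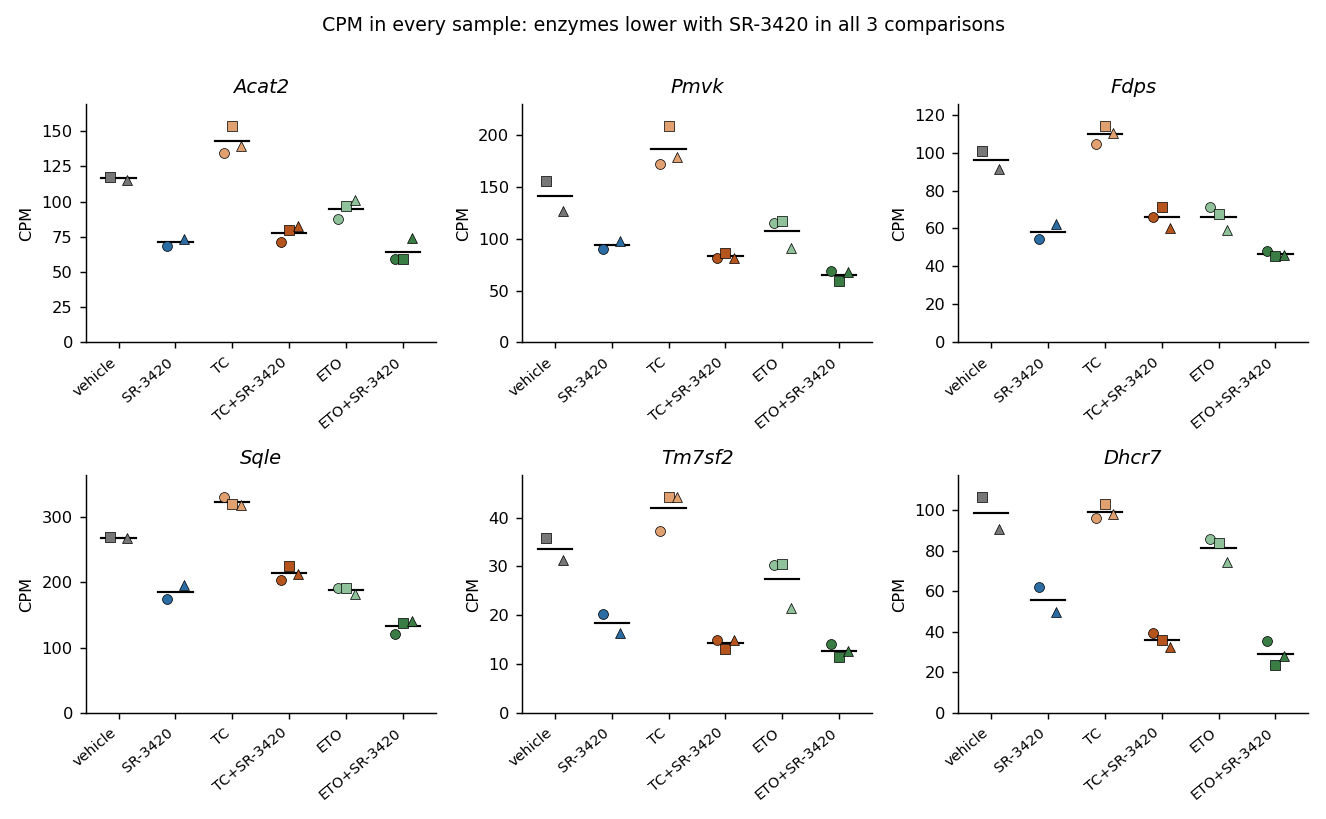
CPM in each of the 16 samples for the 6 enzymes called lower in all 3 comparisons, by treatment group on the x axis, with a line at the group mean and circles, squares and triangles for replicates 1, 2 and 3. In every panel each group with SR-3420 lies below the control group to its left. The genes were selected for being lower with SR-3420.

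The committed part of the pathway starts with Fdft1, squalene synthase (NM_010191; mm9 chromosome 14, 63763988 to 63796630, minus strand). In CPM, Fdft1 was at 119 and 115 with vehicle against 55.3 and 69.7 with SR-3420. It was at 80.8, 79.8 and 87.7 with TC against 64.3, 72.1 and 61.3 with TC+SR-3420, and at 74.5, 84.5 and 68.02 with ETO against 49.8, 41.7 and 52.3 with ETO+SR-3420. The vehicle samples stood above all others, and SR-3420 samples lay below their controls in each setting. Its log2FC was -0.91 (SE 0.16) for SR-3420 alone, -0.33 (SE 0.13) with TC and -0.66 (SE 0.13) with ETO, with adjusted p of 0.00423, 0.0640 and 0.00277 (edgeR's quasi-likelihood test, Benjamini-Hochberg adjustment). Its call for SR-3420 alone was lost without SR-3420 replicate 1 (adjusted p 0.0642; 1.11e-06 to 0.166 over all alternatives). With TC it was called when 10 counts were required in every sample or only these groups were fitted. The gene shares 773 bases with Ctsb on the opposite strand, whose mean of 1174 CPM is far above the 73.5 of Fdft1, and counting by strand is not given in the sources used here, so its values are uncertain. The log2FC of Ctsb was -0.19, -0.77 and -0.46 in these comparisons.

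Sqle adds the oxygen to squalene, and Lss closes the ring to lanosterol. In CPM, Sqle was at 268 and 268 with vehicle against 175 and 196 with SR-3420. It was at 331, 319.7 and 318 with TC against 203, 224 and 212 with TC+SR-3420, and at 191, 191 and 182 with ETO against 121, 137 and 139.9 with ETO+SR-3420. The vehicle samples of Sqle (NM_009270; mm9 chromosome 15, 59146647 to 59162748, plus strand) were nearly equal, and no SR-3420 sample reached its control group. Its log2FC was -0.53 (SE 0.12) for SR-3420 alone, -0.60 (SE 0.096) with TC and -0.50 (SE 0.096) with ETO, with adjusted p of 0.0157, 0.000357 and 0.00230 (edgeR's quasi-likelihood test, Benjamini-Hochberg adjustment). The call of Sqle for SR-3420 alone was lost without vehicle replicate 2, vehicle replicate 3 or SR-3420 replicate 1 (adjusted p 0.0837, 0.0927 and 0.143; 1.63e-07 to 0.318 over all alternatives). In CPM, Lss was at 336 and 267 with vehicle against 247 and 212 with SR-3420. It was at 358, 367 and 343 with TC against 204, 209 and 179 with TC+SR-3420, and at 251, 241 and 182 with ETO against 173, 128 and 147 with ETO+SR-3420. Lss (NM_146006; mm9 chromosome 10, 75994372 to 76016679, plus strand) had no overlap between samples with and without SR-3420 in any of the 3 settings. Its log2FC was -0.39 (SE 0.19) for SR-3420 alone, -0.85 (SE 0.15) with TC and -0.59 (SE 0.15) with ETO, with adjusted p of 0.237, 0.000812 and 0.0125 (edgeR's quasi-likelihood test, Benjamini-Hochberg adjustment). The call of Lss with ETO was lost without ETO replicate 1, ETO replicate 2 or ETO+SR-3420 replicate 2 (adjusted p 0.0505, 0.0520 and 0.0651; 2.20e-05 to 0.0933 over all alternatives).

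Lanosterol loses a methyl group to Cyp51, and the double bond formed is reduced by Tm7sf2 or by Lbr, which is also a receptor for lamin B. Cyp51 ranged from 150.5 to 372 CPM and was not called in any of the 3 comparisons, with log2FC of -0.52 (SE 0.25), -0.26 (SE 0.20) and -0.28 (SE 0.20), but was called lower in each without the GC and length trends. In CPM, Tm7sf2 was at 35.9 and 31.4 with vehicle against 20.3 and 16.4 with SR-3420. It was at 37.3, 44.3 and 44.2 with TC against 15.05, 13.1 and 15.01 with TC+SR-3420, and at 30.3, 30.6 and 21.5 with ETO against 14.2, 11.5 and 12.6 with ETO+SR-3420. Every SR-3420 sample of Tm7sf2 (NM_028454; mm9 chromosome 19, 6062821 to 6067850, minus strand) lay below every sample without it in its setting. Its log2FC was -0.88 (SE 0.20) for SR-3420 alone, -1.54 (SE 0.16) with TC and -1.10 (SE 0.16) with ETO, with adjusted p of 0.0174, 2.02e-05 and 0.000375 (edgeR's quasi-likelihood test, Benjamini-Hochberg adjustment). The call of Tm7sf2 for SR-3420 alone was lost without vehicle replicate 2, vehicle replicate 3 or SR-3420 replicate 3 (adjusted p 0.115, 0.0591 and 0.114; 3.16e-05 to 0.204 over all alternatives). Its fall with TC, by 65.7%, was the largest among the 25 genes in that comparison. It shares 9 bases with Vps51 on the same strand, which had log2FC of 0.28, -0.104 and -0.07. Lbr, with the other reductase activity, was not called, at -0.01 (SE 0.26), 0.36 (SE 0.21) and 0.36 (SE 0.21), but was called higher with TC and with ETO without the GC and length trends.

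Nsdhl and Hsd17b7 act in the removal of further methyl groups. Nsdhl was not called in any of the 3 comparisons, at -0.75 (SE 0.23), -0.47 (SE 0.19) and -0.47 (SE 0.19). It was called lower in each without the GC and length trends, by DESeq2 without inhibitor, and with TC when 10 counts were required in every sample or only these groups were fitted. A call of Nsdhl with TC appeared without TC+SR-3420 replicate 3 (adjusted p 0.0393; 2.78e-05 to 0.221 over all alternatives). A call of it with ETO appeared without ETO+SR-3420 replicate 3 (adjusted p 0.0222; 7.80e-05 to 0.246 over all alternatives). Hsd17b7 was called with TC, at -0.81 (SE 0.27), but not without inhibitor (-0.80, SE 0.33) or with ETO (-0.68, SE 0.27). The call of Hsd17b7 with TC was lost without TC replicate 1, TC replicate 3, TC+SR-3420 replicate 1 or TC+SR-3420 replicate 2 (adjusted p 0.1004, 0.0566, 0.107 and 0.113; 1.15e-07 to 0.113 over all alternatives). It was also lost with library totals and without a filter on low counts. A call of Hsd17b7 with ETO appeared without ETO+SR-3420 replicate 3 (adjusted p 0.0139; 1.07e-05 to 0.293 over all alternatives). Ebp then moves the double bond. In CPM, Ebp was at 86.5 and 75.2 with vehicle against 63.3 and 65.1 with SR-3420. It was at 94.3, 98.1 and 97.6 with TC against 58.1, 52.6 and 52.8 with TC+SR-3420, and at 79.2, 78.8 and 61.3 with ETO against 55.3, 46.4 and 48.5 with ETO+SR-3420. Ebp (NM_007898; mm9 chromosome X, 7762457 to 7770638, minus strand) had lower values in all SR-3420 samples than in their controls. Its log2FC was -0.33 (SE 0.15) for SR-3420 alone, -0.83 (SE 0.12) with TC and -0.55 (SE 0.12) with ETO, with adjusted p of 0.212, 0.000200 and 0.00545 (edgeR's quasi-likelihood test, Benjamini-Hochberg adjustment).

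Dhcr7 reduces a late double bond on the way to cholesterol (NM_007856; mm9 chromosome 7, 151009072 to 151034315, plus strand). In CPM, Dhcr7 was at 107 and 90.7 with vehicle against 61.8 and 49.8 with SR-3420. It was at 95.999, 103 and 97.8 with TC against 39.6, 35.8 and 32.3 with TC+SR-3420, and at 85.7, 83.7 and 74.5 with ETO against 35.6, 23.5 and 28.3 with ETO+SR-3420. The groups with and without SR-3420 were far apart in the presence of either inhibitor and did not overlap without one. Its log2FC was -0.82 (SE 0.19) for SR-3420 alone, -1.46 (SE 0.16) with TC and -1.48 (SE 0.16) with ETO, with adjusted p of 0.0179, 2.02e-05 and 3.34e-05 (edgeR's quasi-likelihood test, Benjamini-Hochberg adjustment). The call of Dhcr7 for SR-3420 alone was lost without vehicle replicate 2, vehicle replicate 3 or SR-3420 replicate 3 (adjusted p 0.128, 0.0517 and 0.120; 1.05e-05 to 0.199 over all alternatives). The falls with TC and ETO came to 63.7% and 64.1%, beside 43.4% without inhibitor.

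Of the SREBP2 machinery, only Insig1 was called in these 3 comparisons, and only with TC. In CPM, Srebf2 was at 509 and 369.6 with vehicle against 517 and 378 with SR-3420. It was at 417, 462 and 359 with TC against 519.6, 483 and 343 with TC+SR-3420, and at 439, 383 and 260.2 with ETO against 459, 376 and 279 with ETO+SR-3420. Srebf2, the gene of SREBP2 itself (NM_033218; mm9 chromosome 15, 81977699 to 82035390, plus strand), overlapped between all groups compared, with the replicate 3 libraries the lowest of each group. Its log2FC was 0.03 (SE 0.29) for SR-3420 alone, 0.12 (SE 0.24) with TC and 0.04 (SE 0.24) with ETO, with adjusted p of 0.970, 0.724 and 0.926 (edgeR's quasi-likelihood test, Benjamini-Hochberg adjustment).

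In CPM, Scap was at 225 and 139.7 with vehicle against 318 and 184 with SR-3420. It was at 154, 198 and 144 with TC against 229.7, 184 and 134 with TC+SR-3420, and at 230.3, 179.6 and 104 with ETO against 263, 177 and 132 with ETO+SR-3420. Scap, the escort (NM_001103162; mm9 chromosome 9, 110235792 to 110287453, plus strand), also overlapped in each setting, and its vehicle and SR-3420 samples were each spread widely. Its log2FC was 0.46 (SE 0.41) for SR-3420 alone, 0.14 (SE 0.33) with TC and 0.15 (SE 0.33) with ETO, with adjusted p of 0.570, 0.765 and 0.785 (edgeR's quasi-likelihood test, Benjamini-Hochberg adjustment).

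Insig1 is both a brake on SREBP2 and a target of it (NM_153526; mm9 chromosome 5, 28397952 to 28405202, plus strand). In CPM, Insig1 was at 1461 and 1012 with vehicle against 1528 and 919.5 with SR-3420. It was at 1447, 1760.1 and 1277 with TC against 946, 936 and 726 with TC+SR-3420, and at 1115, 994 and 788 with ETO against 1136, 587 and 924 with ETO+SR-3420. Its samples with SR-3420 lay below the controls with TC, and overlapped them with ETO and without inhibitor. Its log2FC was -0.02 (SE 0.32) for SR-3420 alone, -0.78 (SE 0.26) with TC and -0.13 (SE 0.26) with ETO, with adjusted p of 0.986, 0.0311 and 0.763 (edgeR's quasi-likelihood test, Benjamini-Hochberg adjustment). Its call with TC was lost without TC replicate 1, TC replicate 2, TC+SR-3420 replicate 1, TC+SR-3420 replicate 2 or TC+SR-3420 replicate 3 (adjusted p 0.0585, 0.117, 0.0526, 0.0638 and 0.110; 0.00117 to 0.117 over all alternatives).

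In CPM, Insig2 was at 61.6 and 73.1 with vehicle against 50.6 and 66.1 with SR-3420. It was at 54.8, 46.3 and 52.4 with TC against 47.8, 51.9 and 60.6 with TC+SR-3420, and at 49.3, 54.00 and 64.4 with ETO against 51.3, 52.7 and 63.5 with ETO+SR-3420. Insig2 (NM_178082; mm9 chromosome 1, 123200930 to 123229166, minus strand), a related brake, overlapped between the groups in all 3 settings. Its log2FC was -0.21 (SE 0.19) for SR-3420 alone, 0.06 (SE 0.15) with TC and -0.002 (SE 0.15) with ETO, with adjusted p of 0.578, 0.779 and 0.995 (edgeR's quasi-likelihood test, Benjamini-Hochberg adjustment). Of these 4 genes, 0 were called without inhibitor, 1 with TC and 0 with ETO, against 7.54%, 36.9% and 25.3% of all genes. In edgeR's quasi-likelihood test 0, 1 and 0 of them had an unadjusted p under 0.05, beside 2788, 5947 and 4758 of all 12786 genes. In the same 3 comparisons, the SREBP2 machinery was also tested with DESeq2. DESeq2's Wald test called the same numbers of them, against 12.9%, 37.8% and 28.6% of all genes it tested.

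Among the genes of sterol traffic and storage, Soat1 rose. It encodes the acyltransferase that esterifies cholesterol for storage (NM_009230; mm9 chromosome 1, 158358239 to 158404459, minus strand). In CPM, Soat1 was at 32.1 and 53.3 with vehicle against 53.7 and 88.9 with SR-3420. It was at 48.6, 37.7 and 52.4 with TC against 104, 113 and 159.9 with TC+SR-3420, and at 33.2, 42.2 and 60.6 with ETO against 76.6, 138 and 146 with ETO+SR-3420. Samples with SR-3420 lay above their controls in each setting, although the vehicle and SR-3420 groups almost touched. Its log2FC was 0.74 (SE 0.38) for SR-3420 alone, 1.44 (SE 0.31) with TC and 1.41 (SE 0.31) with ETO, with adjusted p of 0.279, 0.00287 and 0.00517 (edgeR's quasi-likelihood test, Benjamini-Hochberg adjustment). The fold was 2.72 with TC and 2.65 with ETO, and these calls were kept whichever of the 6 samples was left out.

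Npc1 and Npc2 pass cholesterol out of lysosomes. In CPM, Npc1 was at 105 and 92.1 with vehicle against 123 and 125 with SR-3420. It was at 86.4, 76.2 and 79.6 with TC against 143, 144 and 139 with TC+SR-3420, and at 118, 98.2 and 88.1 with ETO against 135, 140.3 and 114 with ETO+SR-3420. With SR-3420 Npc1 was higher without overlap alone and with TC, while a single ETO sample reached into the ETO+SR-3420 range. Its log2FC was 0.33 (SE 0.15) for SR-3420 alone, 0.82 (SE 0.13) with TC and 0.35 (SE 0.12) with ETO, with adjusted p of 0.222, 0.000255 and 0.0530 (edgeR's quasi-likelihood test, Benjamini-Hochberg adjustment). A call of Npc1 with ETO appeared without ETO replicate 1 or ETO+SR-3420 replicate 3 (adjusted p 0.0196 and 0.0267; 0.00977 to 0.241 over all alternatives). It shares 276 bases with 3110002H16Rik on the opposite strand, which had log2FC of 0.09, -0.16 and 0.01.

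In CPM, Npc2 was at 472 and 495 with vehicle against 404 and 432 with SR-3420. It was at 663, 632 and 667 with TC against 410.1, 391 and 442 with TC+SR-3420, and at 437, 438 and 413 with ETO against 386, 379.7 and 382 with ETO+SR-3420. The TC samples of Npc2 (NM_023409; mm9 chromosome 12, 86095509 to 86114062, minus strand) stood above those of every other group, and SR-3420 samples lay below their controls throughout. Its log2FC was -0.21 (SE 0.11) for SR-3420 alone, -0.66 (SE 0.09) with TC and -0.17 (SE 0.09) with ETO, with adjusted p of 0.308, 0.000136 and 0.213 (edgeR's quasi-likelihood test, Benjamini-Hochberg adjustment). Stard4, which carries cholesterol between membranes, ranged from 47.4 to 110.1 CPM and was not called, at -0.49 (SE 0.27), -0.11 (SE 0.22) and -0.08 (SE 0.22).

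**Figure D3:**
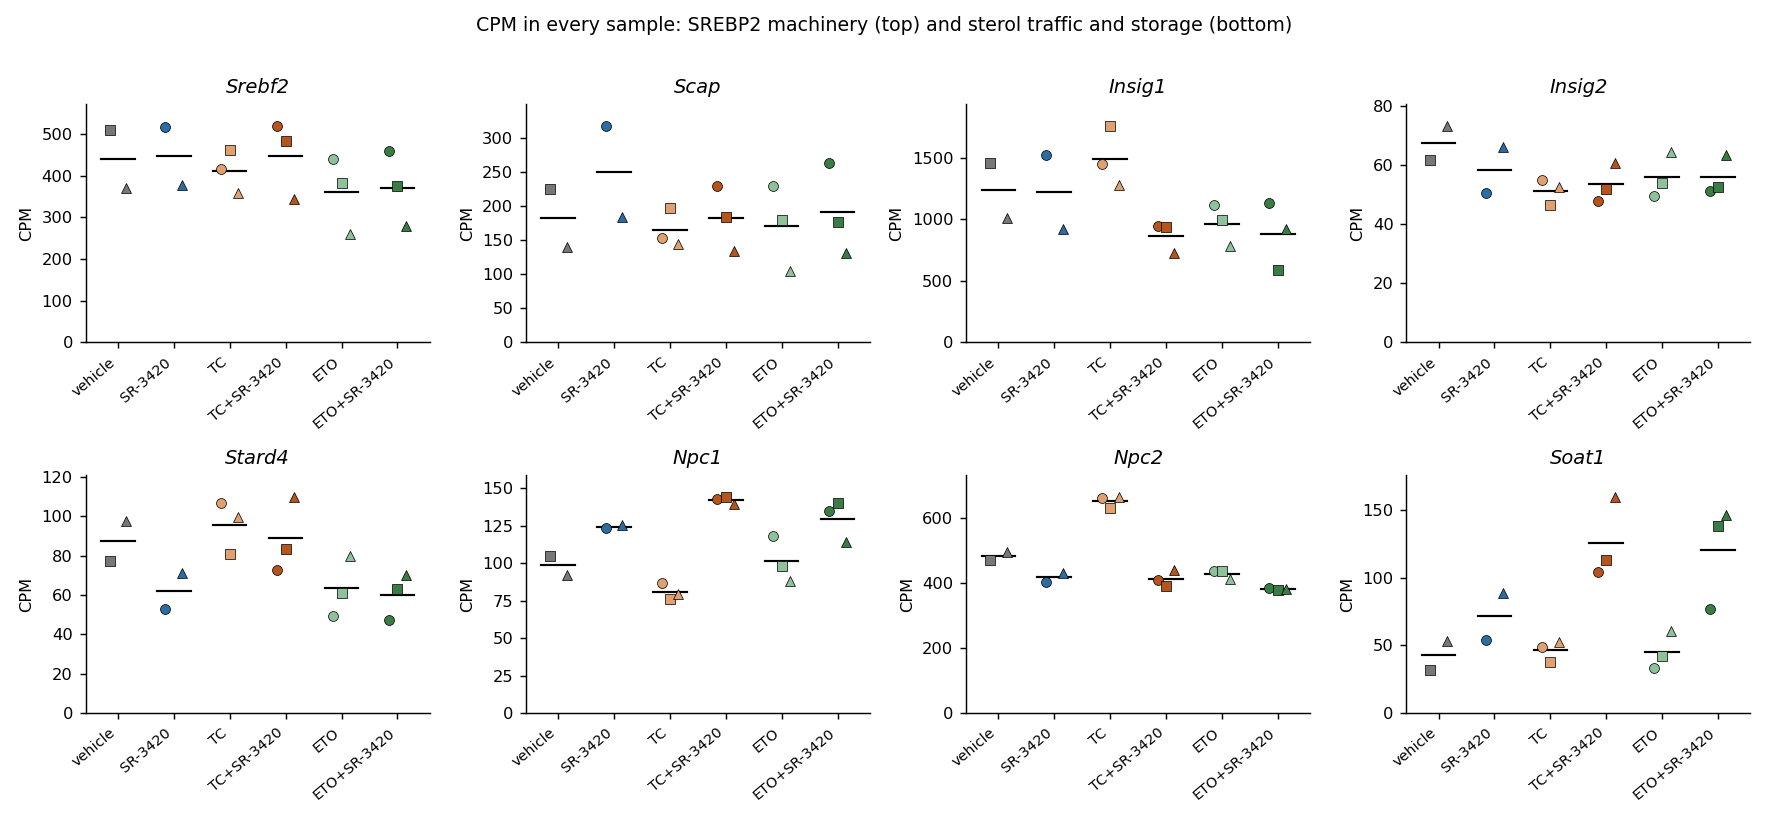
CPM in each sample for the 4 genes of the SREBP2 machinery and the 4 of sterol traffic and storage, by treatment group, with a line at the group mean and circles, squares and triangles for replicates 1, 2 and 3. Srebf2, Scap and Insig2 overlap between all groups compared for SR-3420, Soat1 is higher in each group with SR-3420, and the TC samples of Npc2, at 663, 632 and 667 CPM, are the highest.

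The inhibitors alone moved few of the genes past the test. TC against vehicle called 1 gene lower, Fdft1, against 6.94% of all genes, and 1 higher, Npc2, against 4.77%. The log2FC were -0.50 (SE 0.14) and 0.44 (SE 0.105), with adjusted p of 0.0376 and 0.0147 (edgeR's quasi-likelihood test, Benjamini-Hochberg adjustment). Neither vehicle sample overlapped the TC samples for either gene. Over all genes tested, the log2FC for TC against vehicle was above 0 for 7278 of 12786, with a median of 0.07. It was above 0 for 15 of the 17 enzymes, with a median of 0.28. It was above 0 for 14 of them with DESeq2's size factors or library totals, and for 10 without the GC and length trends. The call of Fdft1 for TC alone was lost without vehicle replicate 2, vehicle replicate 3, TC replicate 1, TC replicate 2 or TC replicate 3 (adjusted p 0.160, 0.149, 0.106, 0.116 and 0.0680; 0.000498 to 0.160 over all alternatives). The call of Npc2 for TC alone was lost without vehicle replicate 2, vehicle replicate 3 or TC replicate 3 (adjusted p 0.116, 0.0822 and 0.0520; 4.57e-08 to 0.118 over all alternatives). It was also lost with library totals, without a filter on low counts and when only these groups were fitted. The count of genes was thus 0 without vehicle replicate 2, vehicle replicate 3 or TC replicate 3, and 1 without TC replicate 1 or 2, against 5.34% to 8.53% of all genes in these fits. DESeq2's Wald test called 3, with Sqle added, against 14.8% of all genes. When only the vehicle and TC samples were fitted 1 gene passed, against 11.9%, and without the GC and length trends 6 did, with Insig2, Cyp51, Hsd17b7 and Lbr added, against 24.2% of all genes.

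ETO against vehicle called 0 of the 25 genes in edgeR's quasi-likelihood test, against 0.0235% of all genes. In that test 6 of the 25 had an unadjusted p under 0.05, beside 283 of all 12786 tested. DESeq2's Wald test called 3, which were Fdps, Fdft1 and Sqle, all lower, against 0.152% of all genes. In edgeR these had log2FC of -0.54 (SE 0.12), -0.63 (SE 0.14) and -0.51 (SE 0.11), with Benjamini-Hochberg adjusted p of 0.779, 0.779 and 0.489, and all 3 ETO samples lay below both vehicle samples for each. The log2FC was below 0 for 15 of the 17 enzymes, beside 48.4% of all genes tested, with a median of -0.30 beside 0.01 over all genes. Without the GC and length trends Mvd, Fdps, Fdft1, Sqle, Nsdhl and Stard4 passed, all lower, against 0.251% of all genes. Both of these comparisons use the vehicle samples that SR-3420 alone was compared with.

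**Figure D4:**
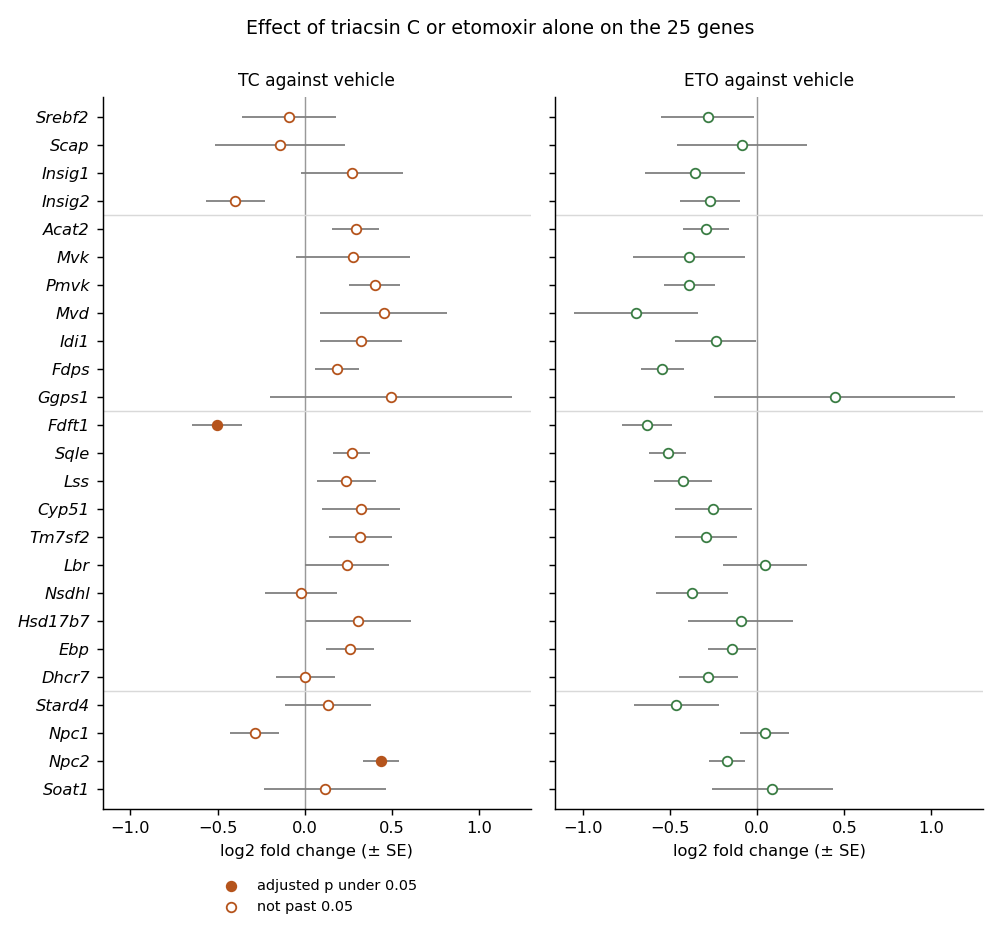
Log2 fold change (± SE) of the 25 genes for TC (n = 3) and ETO (n = 3), each against vehicle (n = 2), with genes ordered by role and filled points past an adjusted p of 0.05 in edgeR's quasi-likelihood test. The filled points are Fdft1 at -0.50 and Npc2 at 0.44 with TC, and no point is filled with ETO.

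With SR-3420 present, adding TC left 1 gene called lower, Dhcr7, and 0 higher, against 4.58% of all genes called in either direction. Its log2FC for TC+SR-3420 against SR-3420 was -0.64 (SE 0.17), with an adjusted p of 0.04999 (edgeR's quasi-likelihood test, Benjamini-Hochberg adjustment), just under the threshold. The call for TC+SR-3420 against SR-3420 was lost without SR-3420 replicate 1, SR-3420 replicate 3, TC+SR-3420 replicate 1, TC+SR-3420 replicate 2 or TC+SR-3420 replicate 3 (adjusted p 0.499, 0.0572, 0.0730, 0.117 and 0.177; 0.00161 to 0.499 over all alternatives). It was also lost with DESeq2's size factors, without a filter on low counts and when only these groups were fitted. Each of these fits left 0 genes, against 0.414% to 3.07% of all genes without single samples and 4.47%, 2.50% and 0.634% in the other 3. DESeq2's Wald test called 1, against 10.2% of all genes. In edgeR's quasi-likelihood test 4 of the 25 genes had an unadjusted p under 0.05, beside 2494 of all 12786 tested. Without the GC and length trends 6 genes passed, 2 lower and 4 higher, with Insig2, Cyp51, Stard4, Soat1 and Lbr added, against 19.1% of all genes. Adding ETO called 0 genes in edgeR's quasi-likelihood test, against 0.00782% of all genes. In that test 11 of the 25 had an unadjusted p under 0.05, beside 1279 of all 12786 tested. DESeq2 called 2 (Sqle and Dhcr7, lower), against 0.749% of all genes. Without the GC and length trends 4 passed (Mvd, Sqle, Lss and Dhcr7, lower), against 1.28%. For ETO+SR-3420 against SR-3420, 20 of the 25 genes had a log2FC below 0, beside 50.1% of all genes tested. The median was -0.32, beside -0.000492 over all genes.

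A call with an inhibitor and none without it does not show that the responses differ, so the difference itself was tested. The response to SR-3420 with TC minus that without inhibitor was called for 0 of the 25 genes in edgeR's quasi-likelihood test, against 2.51% of all genes. In that test 7 of the 25 had an unadjusted p under 0.05, beside 2130 of all 12786 tested. DESeq2 called 1 (Npc2), against 6.44% of all genes, and 1 passed without the GC and length trends (Fdft1), against 9.35%. With ETO the difference was called for 0 in edgeR, against 0.00% of all genes, and for 0 by DESeq2. In edgeR 1 of the 25 had an unadjusted p under 0.05, beside 307 of all 12786 tested. On the log2 scale the difference with TC was -0.64 (95% interval -1.16 to -0.12) for Dhcr7, -0.67 (95% interval -1.22 to -0.12) for Tm7sf2 and -0.58 (95% interval -1.03 to -0.13) for Pmvk. For Npc2, the gene with the smallest p, it was -0.45 (95% interval -0.76 to -0.13), and for Ebp -0.49 (95% interval -0.91 to -0.08). It had the other sign for Fdft1, at 0.58 (95% interval 0.13 to 1.02), the gene called without the trends, and for Npc1, at 0.48 (95% interval 0.06 to 0.91). It was -0.01 (95% interval -0.39 to 0.37) for Fdps, -0.07 (95% interval -0.40 to 0.26) for Sqle and -0.16 (95% interval -0.56 to 0.24) for Acat2. These intervals are for single genes and are not adjusted for the number of genes. With ETO it was -0.66 (95% interval -1.18 to -0.14) for Dhcr7 and -0.23 (95% interval -0.78 to 0.32) for Tm7sf2.

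Neighbouring pathways were described with 5 further lists and the same test in edgeR, given in the order SR-3420 alone, with TC and with ETO. Beside each list's counts, the shares of all genes tested were 2.79%, 19.7% and 12.8% lower and 4.75%, 17.3% and 12.5% higher in these comparisons. Of the 14 genes of SREBP1 and fatty acid synthesis, the counts were 3, 8 and 6 lower and 0, 0 and 0 higher, with median log2FC of -0.44, -0.63 and -0.40. Acss2, which makes acetyl-CoA from acetate, was lower in all 3, at -0.74, -1.11 and -0.98, and Scd1, the desaturase, had -0.77, -1.51 and -1.03 and was called with TC and ETO. Me1, which provides NADPH, was lower with TC and with ETO but not called without inhibitor, with log2FC in the order without inhibitor, TC and ETO of -0.72, -0.74 and -0.98. Acaca, which makes malonyl-CoA, was lower without inhibitor and with ETO but not called with TC, at -0.62, -0.046 and -0.66 in the same order. Srebf1, the gene of the related factor SREBP1, was not called, at -0.32 (SE 0.37), -0.56 (SE 0.30) and -0.36 (SE 0.30). Of the 8 measured genes of SREBP processing, the counts were 0, 0 and 0 lower and 1, 1 and 1 higher, and DESeq2's Wald test gave the same counts. The gene in each case was Sec24d, a coat protein of vesicles that leave the endoplasmic reticulum, at 0.53, 0.83 and 0.61. Of the 11 genes of other isoprenoid branches, there were 0, 2 and 2 lower and 1, 2 and 1 higher. With TC and with ETO, 36.4% and 27.3% were called in either direction, about the 36.9% and 25.3% of all genes. In this list Rabggtb, a subunit of the enzyme that prenylates Rab proteins, was higher in all 3, at 0.57, 0.56 and 0.66. Coq2 of coenzyme Q synthesis was lower with TC, at -0.97 (SE 0.13), and with ETO, at -0.67 (SE 0.13).

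Of the 9 tested genes that make oxysterols or respond to the oxysterol receptor LXR, edgeR called 3, 5 and 5 lower and 1, 1 and 1 higher. The gene higher in each was Ch25h, the hydroxylase that makes an oxysterol known to hold back SREBP processing. Ch25h was at 2.901 ± 0.0704 CPM in vehicle and 54.5 ± 9.64 with SR-3420 (SD, n = 2 each), at 2.78 ± 0.379 with TC and 71.04 ± 9.95 with TC+SR-3420, and at 1.57 ± 0.356 with ETO and 40.7 ± 11.3 with ETO+SR-3420 (SD, n = 3 each). Its groups with and without SR-3420 did not overlap. The log2FC were 4.23 (SE 0.30), 4.67 (SE 0.25) and 4.70 (SE 0.25), with adjusted p of 5.63e-06, 1.98e-07 and 2.08e-07 (edgeR's quasi-likelihood test, Benjamini-Hochberg adjustment). Cyp27a1, which makes another oxysterol, and the LXR targets Mylip and Smpdl3a were lower in all 3, at -0.80, -1.38 and -1.12, at -0.75, -1.49 and -0.78 and at -0.96, -1.34 and -1.11. Nr1h3, the gene of LXR alpha, was lower with TC, at -1.27 (SE 0.30), and with ETO, at -0.97 (SE 0.30), and not called without inhibitor, at -0.28 (SE 0.36), and Nr1h2, the gene of LXR beta, was not called, at 0.104, -0.32 and -0.23.

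Of the 18 genes of other sterol traffic, edgeR called 0, 2 and 2 lower and 3, 5 and 3 higher, with median log2FC of 0.16, 0.15 and -0.03. The shares of all genes called were 2.79%, 19.7% and 12.8% lower and 4.75%, 17.3% and 12.5% higher, so with either inhibitor this list's counts lower did not exceed the share over all genes. Vldlr, a lipoprotein receptor, Soat2, the other cholesterol acyltransferase, and Nceh1, which hydrolyses cholesterol esters, were higher in all 3. The log2FC of Vldlr were 1.497, 1.48 and 1.26, with adjusted p of 2.10e-05, 9.70e-07 and 4.00e-06 (edgeR's quasi-likelihood test, Benjamini-Hochberg adjustment). Those of Soat2 were 2.397, 1.97 and 1.78, from levels of 0.852 ± 0.553 CPM in vehicle and 4.65 ± 0.837 with SR-3420 (SD, n = 2 each), and those of Nceh1 were 0.87, 0.71 and 0.73. Scarb1, a receptor for high-density lipoprotein, was lower with TC, at -0.87 (SE 0.19). For comparison, the genes of these 5 lists with an unadjusted p under 0.05 numbered 7, 1, 2, 5 and 4 for SR-3420 alone, 8, 2, 4, 6 and 9 with TC and 6, 1, 3, 7 and 8 with ETO, in the order fatty acid synthesis, SREBP processing, isoprenoid branches, oxysterols and LXR, and other sterol traffic. Of all 12786 genes tested, 2788, 5947 and 4758 had an unadjusted p under 0.05 in these comparisons. DESeq2's Wald test called 5, 1, 2, 5 and 3, then 8, 1, 4, 6 and 9, and then 6, 1, 3, 7 and 7, in the same order of lists. Among fatty acid genes it called 0 higher in each. Over all genes it tested, it called 12.9%, 37.8% and 28.6% in either direction.

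**Figure D5:**
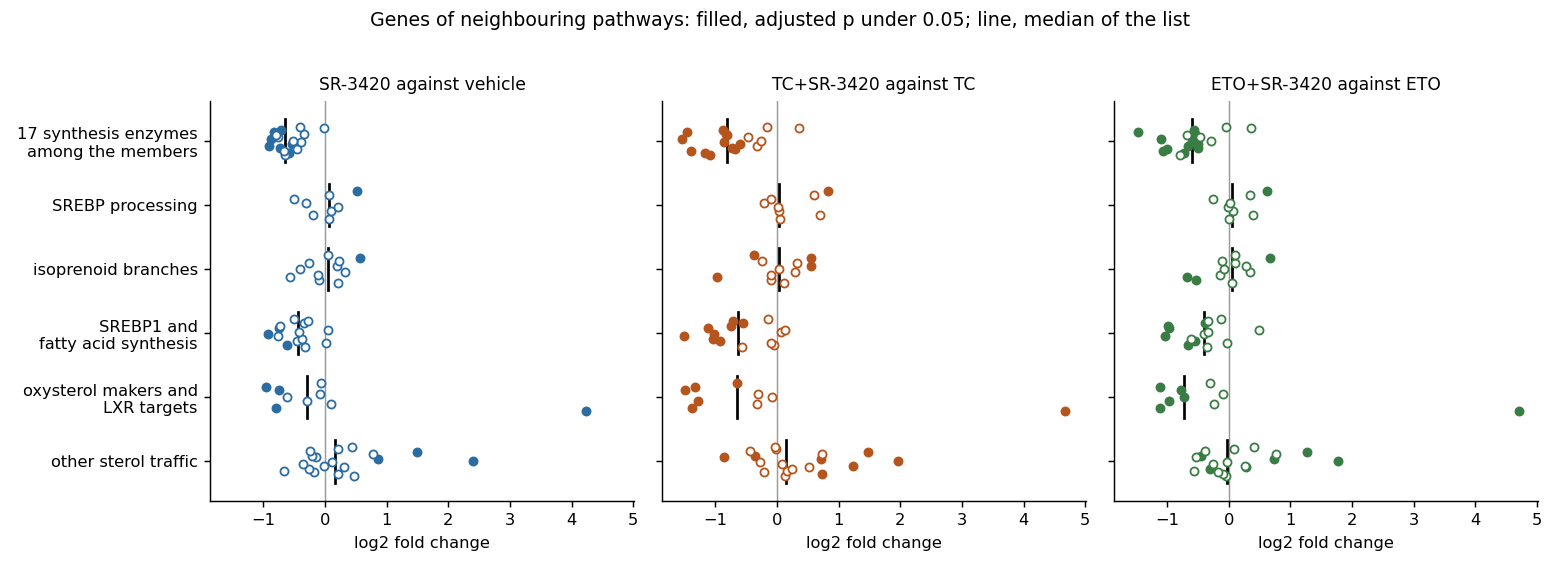
Log2 fold change of each tested gene of the further lists, beside the 17 synthesis enzymes, for SR-3420 alone, with TC and with ETO, with filled points past an adjusted p of 0.05 in edgeR's quasi-likelihood test and a line at each list's median. The medians of the synthesis enzymes are -0.64, -0.81 and -0.59, and the single point furthest to the right is Ch25h.

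TC alone lowered Acaca, at -1.31 (SE 0.13), and the cholesterol exporter Abca1, at -1.57 (SE 0.16), and 4 of the 18 genes of other sterol traffic, against 6.94% of all genes, while 0 of the 8 genes of SREBP processing were called in edgeR's quasi-likelihood test (0 at an unadjusted p under 0.05, and 0 by DESeq2). ETO alone called 0 genes of the 5 further lists in that test, against 0.0235% of all genes. The counts at an unadjusted p under 0.05 were 5 of 14 for fatty acid synthesis and 4 of 9 for oxysterols and LXR. They were 2 of 18 for other sterol traffic and 0 for the 2 remaining lists, beside 283 of the 12786 genes tested. DESeq2's Wald test called 0 genes of any of the 5, against 0.152% of all genes it tested.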

How the data were processed

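The authors made the counts before they were deposited: STAR 2.4.2a aligned reads to mm9, and HOMER kept 1 read per position and read length. iRNA-seq then counted reads for each gene with its gene option. Dropping repeated positions caps counts most for short and abundant transcripts, by an extent that cannot be told here. Counts were tested in edgeR 4.0.16 (R 4.3.3) with TMM scaling, filterByExpr, 6 group means without covariates, quasi-likelihood tests and Benjamini-Hochberg adjustment over 12786 genes, and in DESeq2 1.42.0. Figures used Python 3.11.15 with matplotlib 3.10.9.

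The genes and lists were chosen with earlier results of these data known. Values in every sample are given for the 12 genes with the smallest adjusted p and for the SREBP2 machinery, and from each further list at most 4 genes a direction and the transcription factors are named. Alternatives were other scalings (DESeq2's size factors, library totals), filters (none, or 10 counts in every sample), fits of the compared groups only, a replicate block, leaving out each sample, and a log2FC of at least 0.5 in size. A fit without each library's trends over GC and length, with and without the block, was added after seeing the data. The trends were taken from each library's deviation from the mean of all samples, so treatment effects that follow GC or length were removed too. This fit covered the 11959 tested genes with a GC value, and its shares of all genes are of these. Further enzymes of the pathway and other lipoprotein receptors are not reported here. A vehicle replicate 1 and an SR-3420 replicate 2 were not analysed here.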

Additional observations from a re-analysis of the deposited data

How the results depend on the processing

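Of the counts of genes called, these moved by more than 1.5 times. For SR-3420 against vehicle, 7 became 0 when only the compared groups were fitted (9 at an unadjusted p under 0.05 in edgeR, and 0.378% of all genes), 12 with the replicate block (adding Mvk, Mvd, Nsdhl, Hsd17b7 and Soat1), 16 without the GC and length trends and 17 with both of these. For ETO+SR-3420 against ETO, 12 became 6 with only the compared groups (9.90% of all genes) and 19 without the trends and with the block. For TC against vehicle, 2 became 1 with library totals, without a filter, with only the compared groups or with a log2FC of at least 0.5 in size required, 6 with the block (adding Insig2, Pmvk, Sqle and Acat2), 6 without the trends and 10 with both. For ETO against vehicle, 0 in edgeR became 3 by DESeq2, 6 without the trends and 9 with the block as well (6 at an unadjusted p under 0.05). For TC+SR-3420 against SR-3420, 1 became 0 in edgeR with DESeq2's size factors, without a filter or with only the compared groups (4, 4 and 4 at an unadjusted p under 0.05), 5 with the block (adding Cyp51, Stard4, Soat1 and Lbr), 6 without the trends and 8 with both, and was 1 by DESeq2. For ETO+SR-3420 against SR-3420, 0 in edgeR became 2 by DESeq2, 8 with the block (Mvk, Pmvk, Mvd, Idi1, Sqle, Lss, Dhcr7 and Soat1; Soat1 higher), 4 without the trends and 8 with both (11 at an unadjusted p under 0.05). For the response with TC minus that without inhibitor, 0 in edgeR became 1 by DESeq2 (7 at an unadjusted p under 0.05 in edgeR). It became 2 with the block (Pmvk and Npc2, lower), 1 without the trends and 2 with both (Srebf2 and Fdft1, higher). The other alternatives over all replicates stayed within 1.5 times. Within them the block added Fdft1, Nsdhl and Lbr with TC and Mvk, Nsdhl, Hsd17b7, Npc1 and Lbr with ETO. The share of all genes called rose as well: with the block it was 19.1% (from 7.54%) for SR-3420 against vehicle, 56.2% (from 36.9%) with TC, 45.2% (from 25.3%) with ETO, 24.03% (from 11.7%) for TC against vehicle, 23.5% (from 4.58%) for TC+SR-3420 and 14.4% (from 0.00782%) for ETO+SR-3420 against SR-3420, and 13.1% (from 2.51%) for the difference in response with TC. Without the trends it was 24.3% for SR-3420 against vehicle, 53.04% with TC, 46.5% with ETO, 24.2% for TC and 0.251% for ETO against vehicle, 19.1% and 1.28% for TC+SR-3420 and ETO+SR-3420 against SR-3420, and 9.35% for that difference. With both it was, in the order of the preceding sentence, 33.6%, 62.6%, 56.7%, 33.8%, 0.878%, 31.5%, 13.6% and 16.99%. Of all 12786 genes tested in edgeR's main fit, 283 had an unadjusted p under 0.05 for ETO against vehicle. The numbers were 2494 and 1279 for TC+SR-3420 and ETO+SR-3420 against SR-3420, and 2130 for the difference in response with TC.

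With single samples left out, the counts were 1 to 4 for SR-3420 against vehicle, 13 to 15 with TC, 10 to 14 with ETO, 0 to 1 for TC against vehicle and 0 for the other 5 comparisons, TC+SR-3420 against SR-3420 among them. For the first 4 the shares of all genes were 2.33% to 3.86%, 27.7% to 31.9%, 15.5% to 25.01% and 5.34% to 8.53%. The lowest, 1 and 0, came without vehicle replicate 2, and the highest for SR-3420, 4, without SR-3420 replicate 3. Where this left a group with 1 sample, it was assumed to vary like the other groups. The counts that follow pool these fits with other scalings, tests, filters, fits of the compared groups only, the block and the removal of trends. Among 3425 results, each for a single gene, comparison and setting, 76 calls were lost, 151 gained and 0 changed sign while called. The setting that required a log2FC of at least 0.5 in size is not included.

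Samples with the same replicate number tended to deviate from their group means together: the correlation averaged 0.385 over 35 such pairs, from -0.275 to 0.800, with 27 above 0.1, and -0.190 over 71 pairs with different numbers. Since not every pair was above 0.1, 11 of 16 samples correlated best with their own number and no label ties a number to a shared day or batch, the samples were not treated as paired, and whether a number marks one was not settled.

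The data are limited to 1 cell line, 1 time and RNA. Sterol levels, SREBP2 cleavage and enzyme activity were not analysed here. The groups without inhibitor have 2 samples each, and those 4 samples enter 7 of the 9 comparisons given here, including both tests of a difference in response. Hmgcs1 and other enzymes of the pathway are not covered. Reads of the overlapping gene Ctsb were not separated from those of Fdft1. The adipocyte and fibroblast markers moved together with the cholesterol genes, and the library differences with GC content were removed only in an alternative chosen after seeing the data.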
